A study of Homo sapiens with 20 samples.

Results

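HMGA1 and HMGA2 were the 2 genes examined here, chosen by their symbols from the 58870 genes of the RNA-seq table, together with the FRA1 Cut&Run peaks that overlap either gene or lie within 50 kb of it. Of 54563 consensus peaks, 8 met this rule for HMGA1 and 10 for HMGA2. RNA was sequenced from the human melanoma cell lines A375 and 1205Lu, each treated with non-targeting siRNAs (si-NT) or with siRNAs against FOSL1, the gene that encodes FRA1 (si-FOSL1). Each of these 4 groups had 3 samples, and no other treatment is given for them. FRA1 binding was profiled by Cut&Run, which releases DNA around an antibody-bound protein with a tethered nuclease, in cells with no siRNA named, with 3 FRA1 samples and 1 IgG control per line. The siRNA sequences, their number and the time after transfection are not given in the sources used here. Nothing states that replicates came from separate cultures, so p-values measure only the spread between these samples. A375 and 1205Lu are each a single established line, and in bulk RNA fewer cells of a type and less RNA per cell cannot be told apart.

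High mobility group A proteins are small architectural chromatin factors. Their AT-hooks bind the minor groove of AT-rich DNA, bend it and help transcription factor complexes assemble. HMGA1 and HMGA2 are abundant in embryonic cells, low in most adult tissues and often high again in tumours, and HMGA proteins are also known as components of senescence-associated heterochromatin. HMGA2 mRNA is a textbook target of the let-7 microRNAs, which LIN28 proteins keep in check. FRA1 is a FOS-family protein that pairs with JUN proteins as AP-1 and binds the sequence TGACTCA, whose reverse complement is TGAGTCA.

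Sequences around the AP-1 letters in the strongest peak of each gene are shown because these peaks held the highest FRA1 counts near HMGA1 and HMGA2. A further set comes from a peak upstream of HMGA2 that fell outside the distance limit and was chosen after its values were seen. Each is the plus strand of GRCh38, 5′ to 3′, with the AP-1 letters in capitals.
HMGA1 intron, chr6:34243220-34243286: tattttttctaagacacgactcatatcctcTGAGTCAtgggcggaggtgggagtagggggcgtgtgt
HMGA1 intron, chr6:34244007-34244073: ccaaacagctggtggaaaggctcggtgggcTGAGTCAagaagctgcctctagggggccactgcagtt
HMGA1 intron, chr6:34244663-34244729: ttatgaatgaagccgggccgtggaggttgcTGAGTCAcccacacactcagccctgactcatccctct
HMGA1 intron, chr6:34244686-34244752: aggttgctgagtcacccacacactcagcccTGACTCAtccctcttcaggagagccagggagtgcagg
HMGA2 intron 3, chr12:65892355-65892421: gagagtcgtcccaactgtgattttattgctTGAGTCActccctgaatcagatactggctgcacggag
HMGA2 intron 3, chr12:65893082-65893148: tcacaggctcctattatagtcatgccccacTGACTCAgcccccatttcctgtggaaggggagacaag
Upstream of HMGA2, chr12:65765180-65765246: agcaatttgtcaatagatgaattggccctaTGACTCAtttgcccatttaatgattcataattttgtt
Upstream of HMGA2, chr12:65765529-65765595: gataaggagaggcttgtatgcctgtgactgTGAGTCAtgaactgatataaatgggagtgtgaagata
Upstream of HMGA2, chr12:65765634-65765700: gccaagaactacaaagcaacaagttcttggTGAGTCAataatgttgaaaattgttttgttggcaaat
The last pair of HMGA1 windows overlap, since their AP-1 letters lie close together.

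The RNA-seq totals lay between 20573412 and 32518903 counts per sample, with a biological coefficient of variation of 4.51% (A375) and 4.20% (1205Lu). FOSL1 itself (ENSG00000175592.8) fell from a mean of 414 to 25.7 CPM (counts scaled to a common library size, with TMM factors over all 12 samples) in A375 cells, which left 6.19%. In 1205Lu cells its mean fell from 484 to 68.3 CPM, which left 14.0%. Among 10 melanocyte lineage markers, SOX10 was present in both lines, with group means of 32.5 to 912 CPM, whereas DCT, MLANA and TYR had means under 1 CPM in all groups. The summed level of these markers was 172 to 180 CPM in A375 si-NT samples and 184 CPM in each A375 si-FOSL1 sample. It was 1580 to 1612 CPM in 1205Lu si-NT samples and 1317 to 1348 CPM in 1205Lu si-FOSL1 samples. Of the tested melanocyte markers, 3 of 7 were called higher and 1 lower in A375 cells, and 0 higher and 3 lower in 1205Lu cells. SOX10 fell by 0.44 and MITF rose by 0.29 on the log2 scale in A375 cells, and in 1205Lu cells SOX10 fell by 0.24 and S100A1 from a mean of 188 to 72.2 CPM, and S100B was at -0.074. Of 10 markers of other cell types, CD3E, DCN, EPCAM, PECAM1 and PTPRC had means under 1 CPM in all groups. Their sum ranged from 1649 to 1679 CPM with si-NT and 1527 to 1575 CPM with si-FOSL1 in A375 cells, mostly from KRT18, and from 294 to 300 CPM with si-NT and 284 to 299 CPM with si-FOSL1 in 1205Lu cells, mostly from PDGFRA. In A375 cells 2 of the 7 tested were called higher and 2 lower, KRT8 with a log2 fold change of 0.59, CD68 of -0.43 and KRT18 of -0.17. In 1205Lu cells 1 of 7 was called higher, KRT18 at 0.25, and 2 lower, CD68 at -1.22 and PDGFRA at -0.081. Beside both marker lists, 25.7% of all genes were called higher and 25.1% lower in A375 cells, and 20.6% and 19.9% in 1205Lu cells. The 1205Lu calls of S100B and PDGFRA were lost with no filter (-0.056 and -0.062), in a fit of all 12 samples (-0.058 and -0.064) and without si-NT replicate 2 (-0.053 and -0.070), and that of PDGFRA also without si-NT replicate 3 (-0.063) or si-FOSL1 replicate 2 (-0.052). Their part in the values below was not tested.

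HMGA1 mRNA was lower and HMGA2 mRNA higher after FOSL1 silencing, in both lines. HMGA1 fell to 71.7% of its control level in A375 and 67.7% in 1205Lu cells, and HMGA2 rose much more in A375 cells than in 1205Lu cells. The 2 members of the family thus moved in opposite directions in the same samples. The first comparison asks how silencing FOSL1 changed each gene within a line.

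HMGA1 (ENSG00000137309.19) lies on the plus strand of chromosome 6 from 34236873 to 34246231 (GRCh38). It had 1339, 1356 and 1368 CPM in the A375 si-NT samples and 971, 982 and 972 CPM in the A375 si-FOSL1 samples. The groups did not overlap, and the SD within each was 14.8 and 5.83 CPM. How many other genes are separated in this way was not counted, so a lack of overlap, here or below, sets neither gene apart. In 1205Lu cells the si-NT samples had 1285, 1263 and 1297 CPM of HMGA1, and the si-FOSL1 samples 873, 871 and 894 CPM. Again each silenced sample was below each control sample of its line, as the plot of CPM by sample shows.

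**Figure D1:**
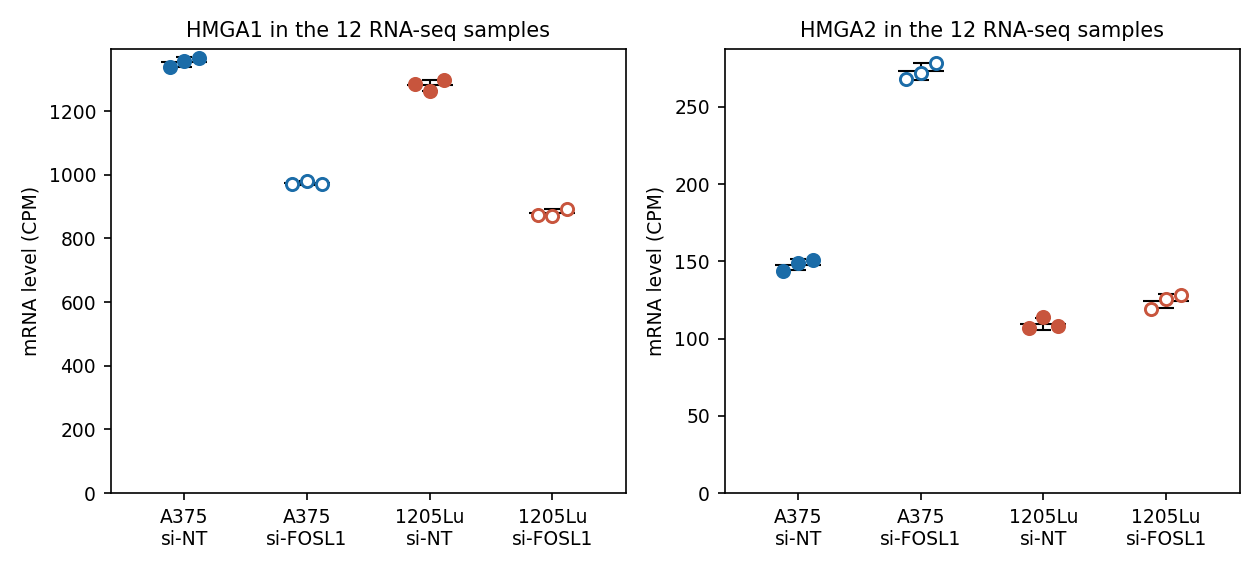
CPM of HMGA1 (left) and HMGA2 (right) in each of the 12 RNA-seq samples, by group, on axes that start at 0. Filled points are si-NT and open points si-FOSL1 samples, and black bars give the mean ± SD (n = 3). HMGA1 was lower in the si-FOSL1 samples of both lines, and HMGA2 was higher, from 148 to 273 CPM on average in A375 cells and from 110 to 124 CPM in 1205Lu cells.

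The log2 fold change of HMGA1 (si-FOSL1 over si-NT) was -0.48 in A375 cells (standard error 0.0145, 95% interval -0.51 to -0.45, Benjamini-Hochberg adjusted p = 2.5e-18 over all genes in the quasi-likelihood test of edgeR). This left 71.7% of the control level. Of the 16899 genes tested in A375 cells, 25.1% were called lower at an adjusted p under 0.05 and 25.7% higher, so a call alone sets neither gene apart. In 1205Lu cells the log2 fold change of HMGA1 was -0.56 (standard error 0.0151, 95% interval -0.59 to -0.53, adjusted p = 2.0e-16, same edgeR test), and 67.7% of the control level was left. There 19.9% of the 17136 genes tested were called lower and 20.6% higher, 40.5% in all, against 50.8% in A375 cells. By size, 26.8% of the genes in A375 cells and 16.9% in 1205Lu cells had a larger absolute log2 fold change than HMGA1.

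HMGA2 (ENSG00000149948.13) lies on the plus strand of chromosome 12 from 65824460 to 65966291. It had 144, 149 and 151 CPM in the A375 si-NT samples and 268, 272 and 279 CPM in the A375 si-FOSL1 samples. The lowest silenced sample was far above the highest control sample. In 1205Lu cells the si-NT samples had 107, 114 and 108 CPM of HMGA2, and the si-FOSL1 samples 119, 125 and 128 CPM. These groups also did not overlap, but the nearest samples, at 114 and 119 CPM, were about as far apart as the SD of the silenced group, 4.52 CPM.

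The log2 fold change of HMGA2 was 0.88 in A375 cells (standard error 0.0267, 95% interval 0.82 to 0.93, adjusted p = 2.7e-18, quasi-likelihood test of edgeR, Benjamini-Hochberg adjustment), a rise of 1.84-fold. Of all genes tested in A375 cells, 8.63% had a larger absolute log2 fold change than HMGA2. In 1205Lu cells the log2 fold change was 0.17 (standard error 0.0346, 95% interval 0.093 to 0.24, adjusted p = 6.2e-04, same edgeR test), a rise of 1.12-fold, and 63.0% of all genes tested there had a larger absolute log2 fold change. Neither gene passed the stricter rule that adds an absolute log2 fold change over 1, which called 5.56% of genes in A375 cells and 3.13% in 1205Lu cells. Among the 15056 genes tested in both lines, HMGA1 was one of 1625 called lower in both (10.8%), and HMGA2 one of 1564 called higher in both (10.4%).

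Whether the silencing effect differed between A375 and 1205Lu was tested with an interaction term, fitted to all 12 samples. For HMGA2 the effect in 1205Lu cells minus that in A375 cells was -0.70 on the log2 scale (standard error 0.0453, 95% interval -0.79 to -0.61, adjusted p = 4.7e-12, quasi-likelihood test of edgeR, Benjamini-Hochberg adjustment). For HMGA1 it was -0.070 (standard error 0.0224, 95% interval -0.12 to -0.024, adjusted p = 0.017, same edgeR test), a slightly larger fall in 1205Lu cells. Of the 19452 genes tested, 15.3% were called in this direction, 16.6% in the other and 31.9% in either, 5.09% had a called difference over 1, which includes neither member, and 88.3% had a larger absolute difference than HMGA1. The HMGA1 difference missed the threshold with no filter on low counts (-0.050, adjusted p = 0.37 in edgeR's test) and without any 1 of 6 libraries, which are 1205Lu si-NT replicates 1 (-0.058) and 3 (-0.057), 1205Lu si-FOSL1 replicates 1 (-0.060) and 2 (-0.052), A375 si-NT replicate 1 (-0.054) and A375 si-FOSL1 replicate 2 (-0.058). FOSL1 itself fell less in 1205Lu cells, by a difference of 1.19 on the log2 scale (standard error 0.0443). The part of this unequal silencing in the unequal response of HMGA2 was not tested.

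In unsilenced cells the lines were compared on the 6 si-NT samples alone. HMGA2 was lower in 1205Lu than in A375 cells, with a log2 fold change of -0.36 (standard error 0.0337, adjusted p = 7.8e-09, quasi-likelihood test of edgeR, Benjamini-Hochberg adjustment), or 77.9% of the A375 level. The 1205Lu samples lay between 107 and 114 CPM, all below the A375 samples at 144 to 151 CPM. HMGA1 gave a log2 fold change of -0.0056 in this fit (95% interval -0.036 to 0.025, adjusted p = 0.73, same edgeR test). On the CPM scale shared by all 12 samples its 1205Lu si-NT samples, 1263 to 1297 CPM, were below the A375 ones, 1339 to 1368 CPM, but the direction turned with DESeq2 and with at least 10 counts required in every sample (0.0012 and 0.019). Of 18050 genes tested between the lines, 39.2% were called lower in 1205Lu cells, 38.8% higher and 78% in either direction, and 40.2% were called with an absolute log2 fold change over 1, which HMGA2 did not reach.

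**Figure D2:**
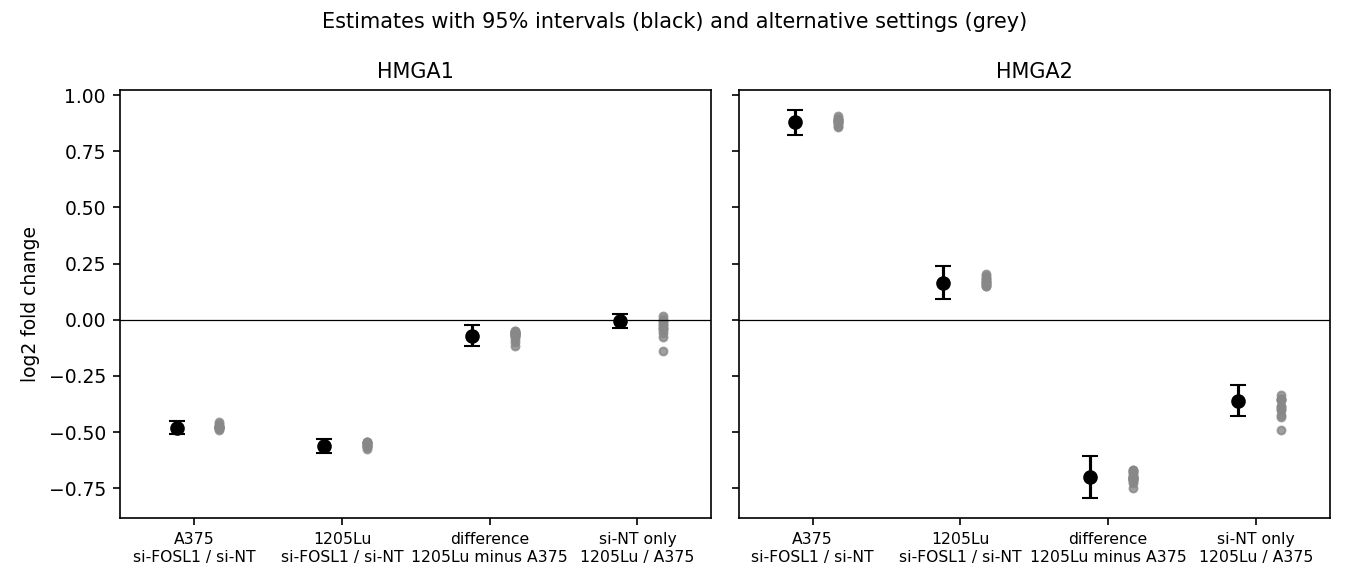
Log2 fold changes of HMGA1 (left) and HMGA2 (right) for silencing in each line, for the difference between the lines, and for 1205Lu over A375 with si-NT. Black points and bars are the edgeR estimates with 95% intervals, and grey points are the alternative settings and the fits without 1 sample. The silencing effects stay on one side of 0 for both genes, whereas the values for HMGA1 between the unsilenced lines fall on both sides of 0, from -0.14 to 0.019.

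The level of one family member against the other can be compared only per length. Per base of the canonical transcript, which spans 1920 bases in 6 exons for HMGA1 and 4117 bases in 5 exons for HMGA2, the HMGA1 level was 19.7 ± 0.285 times the HMGA2 level in A375 si-NT samples (SD, n = 3). It was 7.66 ± 0.161 times in A375 si-FOSL1 samples. In 1205Lu cells the ratio was 25.1 ± 1.15 with si-NT and 15.2 ± 0.454 with si-FOSL1. HMGA1 was thus the more abundant transcript per base in each sample, and the ratio was lower in the silenced samples of each line, with no overlap. Over all annotated exons of each gene, 2327 and 15070 bases, the ratio was higher, 59.4 ± 0.860 in A375 si-NT samples, so its size depends on which transcripts are taken.

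Few counts were assigned to near-identical copies of HMGA1. The 8 processed pseudogenes HMGA1P1 to HMGA1P8 had 0 to 31 counts each per sample, and their sum was 0.0232% to 0.173% of the HMGA1 counts. How reads shared by HMGA1 and these copies were split is uncertain, so these counts do not show how many HMGA1 reads could belong to a copy. HMGA2-AS1, an antisense transcript within HMGA2, had 0 to 8 counts per sample and was tested in neither line. RPSAP52, a transcribed pseudogene on the opposite strand that overlaps the HMGA2 start, had 9 to 11 counts in A375 si-NT samples and 6 to 8 in A375 si-FOSL1 samples. In 1205Lu cells it had 45, 63 and 40 counts with si-NT and 25, 24 and 16 with si-FOSL1. There its log2 fold change was -0.96 (standard error 0.326, adjusted p = 0.023, quasi-likelihood test of edgeR, Benjamini-Hochberg adjustment) with a sign opposite to that of HMGA2. The call was lost without 1205Lu si-NT replicate 2 (-0.63) and without 1205Lu si-FOSL1 replicate 3 (-0.79). The library kit kept strand, and whether the counting used it is not given in the sources used here.

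The rest of the high mobility group family did not move as one. Of 9 HMGB and HMGN genes 8 were tested. Of these, 4 were called higher and 3 lower in A375 cells, and 1 higher and 5 lower in 1205Lu cells. Over all genes tested, 25.7% were called higher and 25.1% lower in A375 cells, and 20.6% and 19.9% in 1205Lu cells. The median log2 fold changes of the 8 were 0.072 and -0.18, beside -0.0026 and -0.0048 for all genes tested. HMGB2, a DNA-bending protein of proliferating cells, fell by 0.42 (standard error 0.0265) in A375 and by 0.55 (0.0400) in 1205Lu cells on the log2 scale. Its relative HMGB3 fell by 0.21 (0.0413) and 0.63 (0.0574). HMGN1, which binds nucleosomes, fell by 0.20 in both lines (0.0282 and 0.0310). HMGN4 rose by 0.15 (0.0408) in A375 and by 0.22 (0.0675) in 1205Lu cells, the direction of HMGA2, but its call in 1205Lu cells was lost without si-NT replicate 3 (0.18) or si-FOSL1 replicate 3 (0.16). HMGN2 rose by 0.12 (0.0303) in A375 cells and had a value of -0.090 (0.0300) in 1205Lu cells. The latter passed the test but not with no filter (-0.071), in a fit of all 12 samples (-0.073) or without si-NT replicate 2 or 3 or si-FOSL1 replicate 1 or 3 (-0.079 to -0.073). In A375 cells HMGB1 was at 0.028, which did not pass the test, and it fell by 0.17 (0.0202) in 1205Lu cells. HMGN3 rose by 0.39 (0.0711) in A375 cells and HMGN5 had a value of 0.18 (0.0667) there, and their values of -0.081 and -0.28 in 1205Lu cells did not pass. HMGN5 was low in 1205Lu cells, with means of 1.93 CPM with si-NT and 1.62 CPM with si-FOSL1, so its value there says little. The HMGN5 call in A375 cells was lost with DESeq2 (0.18), in the fit of all 12 samples (0.19) and without si-NT replicate 1 (0.17), si-NT replicate 2 (0.14) or si-FOSL1 replicate 2 (0.16).

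**Figure D3:**
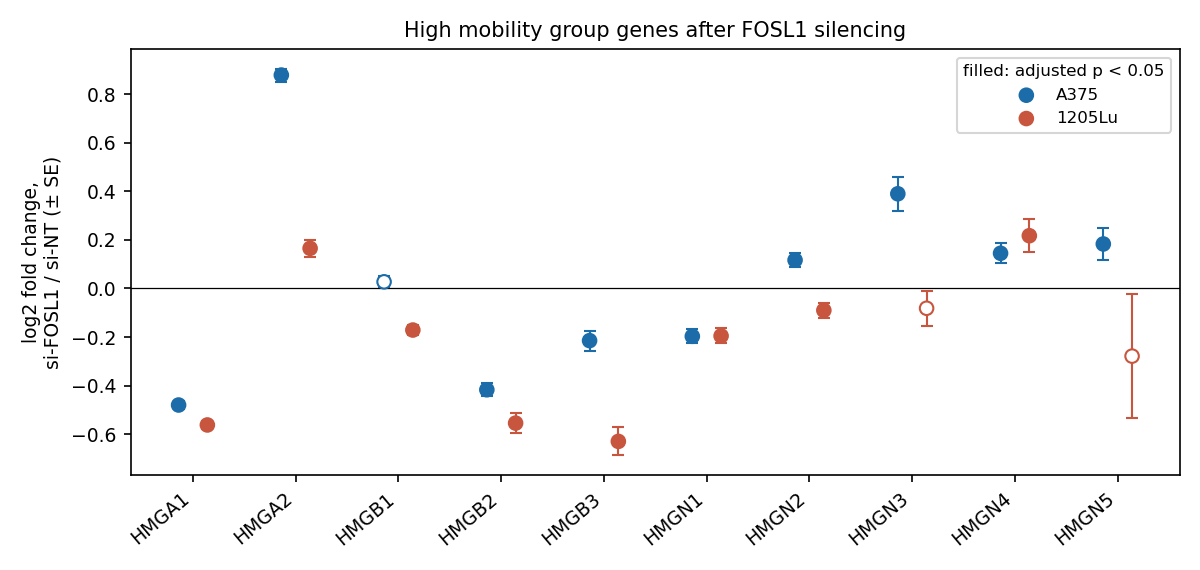
Log2 fold change (si-FOSL1 over si-NT, ± standard error) of the 10 high mobility group genes tested, in A375 (blue) and 1205Lu (red) cells. Filled points passed an adjusted p of 0.05. HMGA2 in A375 cells, at 0.88, has the highest value shown, and HMGA1, HMGB2, HMGB3 and HMGN1 are below 0 in both lines.

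Genes around the let-7 control of HMGA2 were described from a list of 18 genes, of which 16 were tested in A375 and 17 in 1205Lu cells. In A375 cells 7 were called higher and 5 lower (median 0.095), and in 1205Lu cells 8 higher and 3 lower (median 0.14). Among all genes tested, 25.7% were called higher and 25.1% lower in A375 cells, and 20.6% and 19.9% in 1205Lu cells. LIN28B, which blocks let-7 maturation, rose in A375 cells from 17.6 to 26.9 CPM on average, by 0.61 on the log2 scale (standard error 0.0707). In 1205Lu cells it was near the limit of detection, with means of 0.458 CPM with si-NT and 0.355 CPM with si-FOSL1, and the difference of the effects did not pass the test (-0.91, standard error 0.398). The RNA-binding proteins of the IGF2BP family, known as let-7 targets, differed between the lines. IGF2BP3 rose by 0.37 (0.0296) in A375 cells and fell by 0.31 (0.0237) in 1205Lu cells, while IGF2BP2 fell by 0.27 (0.0286) and rose by 0.17 (0.0207). The differences of these effects, 1205Lu minus A375, were -0.67 (0.0384) and 0.45 (0.0359), and both passed the interaction test. IGF2BP1 was at 227 CPM in both A375 groups and rose by 0.40 (0.0612) in 1205Lu cells. The largest falls of the list in A375 cells were those of PLAGL2, a zinc finger factor, by 1.01 (0.0523), and of the G1 cyclin CCND2, by 0.96 (0.0312). PLAGL2 instead rose by 0.19 in 1205Lu cells. CCND2, with means of 0.881 and 1.05 CPM there, did not pass (0.23). THBS1, a matrix protein, rose in both lines, by 0.68 (0.0156) and 1.03 (0.0148). DICER1, which cuts microRNA precursors, rose by 0.33 (0.0307) in A375 and by 0.45 (0.0322) in 1205Lu cells. Mature microRNAs were not measured.

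Among 20 genes named in the literature as regulated by HMGA proteins, 6 of 18 tested were called higher and 8 lower in A375 cells, and 6 of 17 higher and 6 lower in 1205Lu cells. Their medians were -0.054 and 0.17. For this list and the next, all genes gave 25.7% higher and 25.1% lower in A375 cells, and 20.6% and 19.9% in 1205Lu cells. In A375 cells the inhibitor of differentiation ID1 rose by 1.62 (standard error 0.0859), the KIT ligand KITLG rose by 1.23 (0.0845), and the mitotic transcription factor FOXM1 fell by 0.93 (0.0290). In 1205Lu cells the repair gene ERCC1 fell by 0.72 (0.0293), the transcription factor SNAI1 rose by 0.69 (0.0471), and E2F1 fell by 0.65 (0.0866). ERCC1, SNAI1 and E2F1 were also called in A375 cells, at -0.53, 0.96 and -0.53. FOXM1 and ID1 were also called in 1205Lu cells, at -0.50 and 0.38, whereas KITLG did not pass there (0.20). The ID1 call in 1205Lu cells was lost without si-FOSL1 replicate 3 (0.30). Of 20 enzymes that modify HMGA proteins and their partners, 2 were called higher and 10 lower in A375 cells, and 8 higher and 4 lower in 1205Lu cells (medians -0.16 and 0.054). The cell cycle kinase CDK2 fell in both lines, by 0.86 (0.0518) and 0.60 (0.0781). In A375 cells the casein kinase 2 subunit CSNK2B fell by 0.58 (0.0329) and the acetyltransferase EP300 by 0.46 (0.0323). In 1205Lu cells CDK1 fell by 0.67 (0.0647) and the POU factor POU2F1 rose by 0.55 (0.0323). CDK1 and POU2F1 moved the same way in A375 cells (-0.20 and 0.19). EP300 instead rose in 1205Lu cells (0.25). CSNK2B did not pass there (-0.082), except with at least 10 counts in every sample (-0.093).

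Senescence-associated heterochromatin genes and architectural chromatin genes had more members called lower than higher in both lines, beside 25.1% of all genes called lower and 25.7% higher in A375 cells and 19.9% and 20.6% in 1205Lu cells. The lists themselves were not tested. Of the former, 2 of 15 tested were called higher and 10 lower in A375 cells, and 2 of 14 higher and 6 lower in 1205Lu cells (medians -0.19 and -0.071). The CDK inhibitor CDKN1A rose in both lines, by 1.09 (standard error 0.0223) and 0.76 (0.0265). The histone chaperone ASF1B fell by 0.98 (0.0624) and 0.72 (0.0903), and the heterochromatin protein CBX3 by 0.52 (0.0339) and 0.75 (0.0267). Of 20 architectural genes, 3 were called higher and 14 lower in A375 cells and 6 higher and 14 lower in 1205Lu cells (medians -0.22 and -0.23). The linker histone H1FX fell by 0.94 (0.0383) and the cohesin subunit SMC1A by 0.65 (0.0246) in A375 cells. The condensin subunit NCAPG fell by 0.76 (0.0428) and the matrix-binding factor SATB1 rose by 0.79 (0.0576) in 1205Lu cells. Each of these genes was also called the same way in the other line. H1FX and SMC1A were at -0.34 and -0.51 in 1205Lu cells, and NCAPG and SATB1 at -0.38 and 0.23 in A375 cells. Among the AP-1 genes, 3 of 9 tested were called higher and 4 lower in A375 cells, FOSL1 included, and 5 higher and 2 lower in 1205Lu cells (medians 0.14 and 0.66). JUNB rose by 0.97 (0.0515) and 1.01 (0.0627), FOSL2 fell by 0.56 (0.0330) in A375 cells, and JUND rose by 0.73 (0.0659) in 1205Lu cells. JUND also rose in A375 cells, by 0.29, and FOSL2 did not pass in 1205Lu cells (-0.026).

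**Figure D4:**
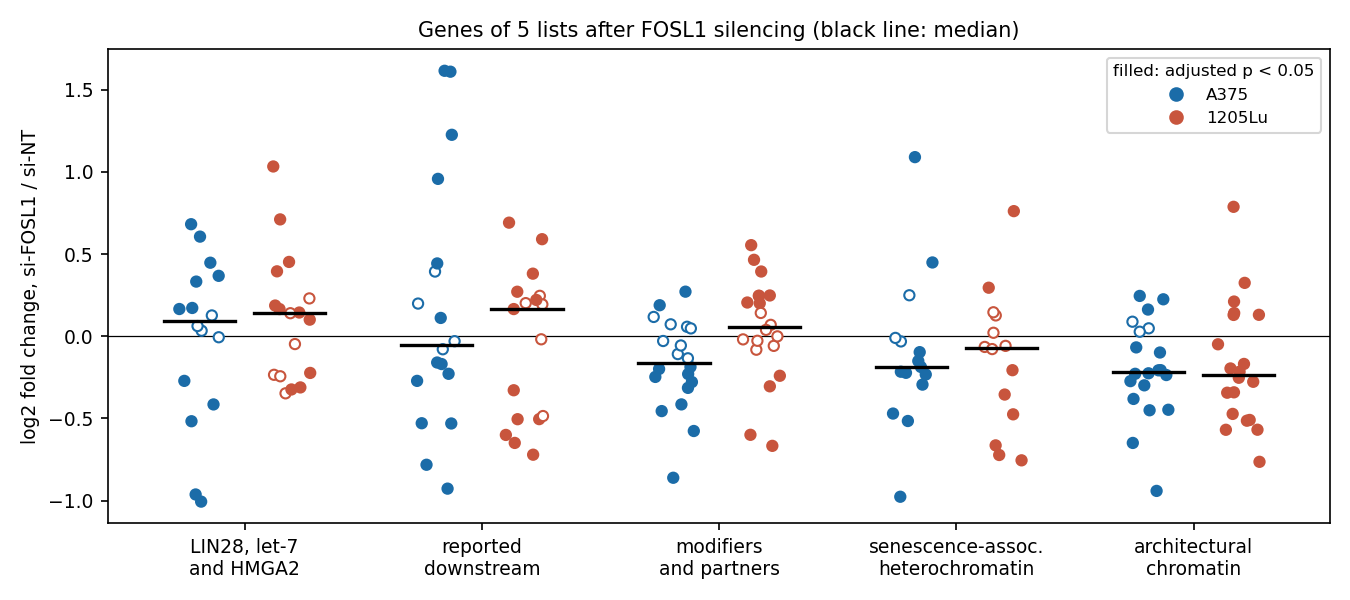
Log2 fold change (si-FOSL1 over si-NT) of each tested gene of 5 lists in A375 (blue) and 1205Lu (red) cells, with the list's median as a black line. Filled points passed an adjusted p of 0.05. The medians of the architectural chromatin genes, -0.22 and -0.23, lie below 0 in both lines, and genes move both ways in each list.

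The genes whose level followed each member most closely over the 12 samples were found by the root-mean-square distance between centred log2(CPM + 1) profiles, among 9326 protein-coding genes. For HMGA1 these were SMC4, a condensin subunit (0.0364), AK4, a mitochondrial adenylate kinase (0.0421), and STIP1, a co-chaperone of HSP70 and HSP90 (0.0442), where the median gene was at 0.439. SMC4 had mean levels of 562 and 413 CPM in A375 cells and 526 and 359 CPM in 1205Lu cells, with si-NT and si-FOSL1, and fell by 0.45 and 0.57 on the log2 scale. For HMGA2 the nearest were TMEM135 (0.111), the epoxide hydrolase EPHX1 (0.116) and ARHGAP42 (0.119), where the median gene was at 0.573. EPHX1 had means of 29.9 and 64.7 CPM in A375 cells and 23.6 and 29.7 CPM in 1205Lu cells, in the same order. The samples share libraries and cell lines, so these distances are descriptions.

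FRA1 Cut&Run reads around both genes were read against a large difference in total counts in peaks. Whether this difference came from sequencing depth or from the share of reads in peaks was not tested. The FRA1 samples held 3354095 to 5316527 counts in peaks in A375 cells and 583750 to 897407 in 1205Lu cells, and the IgG samples 383994 and 314569. Enrichment of a peak required, in every FRA1 sample of the line, 10 or more counts and no fewer than 4 times its IgG count after adding 1 to the latter. No test was run, as each line had 1 IgG sample. By this rule 5 of 8 peaks near HMGA1 and 6 of 10 near HMGA2 were enriched in A375 cells, where 57.4% of all peaks were. In 1205Lu cells 1 peak near HMGA1 and 0 near HMGA2 were enriched, beside 7.09% of all peaks. With each library scaled to the same total in peaks, these counts became 1 and 0 in A375 cells and 0 and 0 in 1205Lu cells. Such scaling also divides out any general excess of FRA1 over IgG reads in peaks. Without A375 FRA1 replicate 1 the count near HMGA2 became 10 in A375 cells, and without 1205Lu FRA1 replicate 1 both genes had 2 enriched peaks in 1205Lu cells.

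The strongest peak near either gene lay inside HMGA1. It spans chr6:34242563-34245177, from intron 3 to exon 6 of the canonical transcript, with the nearest annotated HMGA1 start 1826 bases away. With a limit of 3 kb from an annotated start, it counts as a promoter peak. It had 879, 1300 and 1054 FRA1 counts in A375 cells against 20 with IgG, and 181, 350 and 263 in 1205Lu cells against 27 with IgG. It was the 1 peak of these 18 enriched in both lines, as 4.5% of all peaks were. Only 0.15% of all peaks in A375 cells and 0.159% in 1205Lu cells held more FRA1 counts, and 1.11% and 1.56% held more per base. All 4 of its AP-1 sequences, printed above, are in introns. Of 353 peaks of like width (within 10%), 87.5% held at least 1 AP-1 sequence and 13.0% held 4 or more.

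Peaks over or closer to annotated HMGA1 starts had far lower FRA1 counts. The peak over the HMGA1 start, chr6:34236542-34237175, had 32, 33 and 40 FRA1 counts in A375 cells against 7 with IgG. As CPM in peaks, scaled to each sample's total there, it had 9.541, 6.207 and 9.397 against 18.23, below IgG. Such scaling divides out any general excess of FRA1 over IgG reads in peaks. In 1205Lu cells this peak had 4, 5 and 13 counts against 9, which is not above IgG in each sample, and it held no AP-1 letters. Next to a further annotated HMGA1 start, in intron 2, the peak chr6:34238913-34239848 had 35, 57 and 43 counts against 6 in A375 cells and 7, 10 and 8 against 9 in 1205Lu cells. As CPM in peaks it was also below IgG in A375 cells, at 10.44, 10.72 and 10.1 against 15.63. A pair of peaks upstream, centred 8.1 and 12.6 kb before the HMGA1 start, had 74 to 143 FRA1 counts in A375 cells against 9 and 11 with IgG, and 6 to 19 in 1205Lu cells against 3 and 14. As CPM in peaks in A375 cells, the nearer had 22.06, 26.9 and 22.55 against 23.44 with IgG. The farther had 22.06, 25.58 and 24.2 against 28.65.

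Near HMGA2 the strongest peak was intronic. It spans chr12:65891402-65893386 in intron 3, centred 67.9 kb after the start, and had 235, 462 and 369 FRA1 counts in A375 cells against 24 with IgG. In 1205Lu cells it had 42, 103 and 96 against 10, each above IgG, with replicate 1 below the limit for enrichment. As CPM in peaks it had 70.1, 86.9 and 86.7 against 62.5 with IgG in A375 cells, and 72.0, 115 and 123 against 31.8 in 1205Lu cells. This scale divides by each sample's total in peaks, so it also divides out any general excess of FRA1 over IgG reads there. It holds the 2 AP-1 sequences printed above, 1 of them 6 bases from its centre, and 48.2% of 1111 peaks of like width held 2 or more. The peak next to the HMGA2 start, chr12:65826634-65827474, in intron 1, had 51, 63 and 81 counts against 9 in A375 cells and 7, 4 and 6 against 4 in 1205Lu cells. As CPM in peaks it was below IgG, at 15.21, 11.85 and 19.03 against 23.44 in A375 cells and 11.99, 4.457 and 7.677 against 12.72 in 1205Lu cells. It held no AP-1 letters. A peak centred 5.4 kb upstream, chr12:65818836-65819249, had 53, 75 and 65 counts against 3 in A375 cells and 2, 5 and 4 against 3 in 1205Lu cells. As CPM in peaks it was above IgG in A375 cells, at 15.8, 14.11 and 15.27 against 7.813.

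**Figure D5:**
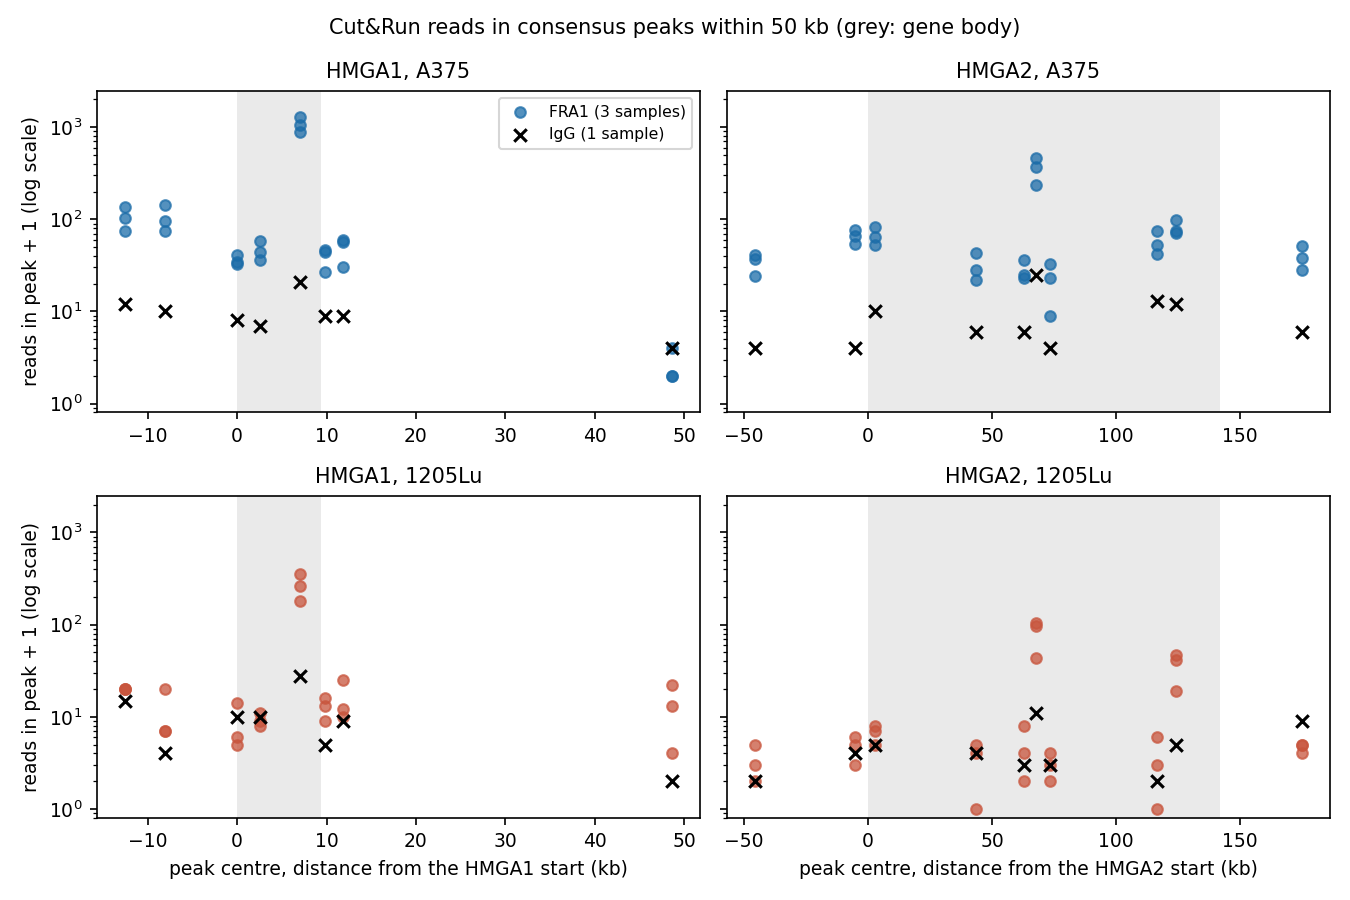
Cut&Run reads plus 1 (log axis) in each consensus peak within 50 kb of HMGA1 (left) and HMGA2 (right), in A375 (top) and 1205Lu (bottom) cells, against the distance of the peak centre from the gene's start in kb. Coloured points are the 3 FRA1 samples, crosses the IgG sample, and grey the gene body. Reads are not scaled to each sample's total in peaks. A peak inside each gene holds the most reads of every FRA1 sample, 7.0 kb after the HMGA1 start and 67.9 kb after the HMGA2 start, and most other 1205Lu points lie near the crosses.

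FRA1 reads in peaks were then compared between the lines over all peaks, as 1205Lu over A375. The IgG samples did not enter this fit, so a call is a difference in normalized FRA1 reads and not in their excess over IgG. 1205Lu FRA1 replicates 2 and 3 did not differ beyond sampling noise, with a chi-square statistic of 1.01 per degree of freedom in 10418 peaks (p = 0.187), and were counted as 1 sample, so the fit had 2 samples against 3. Of 53300 peaks tested, 24.3% were called higher in 1205Lu and 29% higher in A375 cells, 53.3% in all. Near HMGA1, 4 of 8 peaks were called higher in 1205Lu and 0 higher in A375 cells, and near HMGA2, 1 of 10 was called higher in 1205Lu and 2 higher in A375 cells. The median log2 fold change of all peaks was -0.24 here, -0.022 with DESeq2 and -0.43 on total counts, and DESeq2 turned the split of calls from 12947 higher and 15458 lower to 12667 and 9826.

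For the strong HMGA1 peak the log2 fold change was 0.59 (standard error 0.210, 95% interval 0.16 to 1.03, adjusted p = 0.020, quasi-likelihood test of edgeR, Benjamini-Hochberg adjustment), or 0.83 above the median of all peaks. As CPM in peaks it had 262, 245 and 248 in A375 cells against 52.1 with IgG, and 310, 390 and 337 in 1205Lu cells against 85.8 with IgG. The IgG value was thus also higher in 1205Lu cells, and whether FRA1 relative to IgG differed between the lines was not tested. The FRA1 values of the lines did not overlap, and the share of all peaks for which this also holds was not counted. Its call was lost without any 1 of the A375 samples (0.75, 0.57 and 0.58 without replicates 1, 2 and 3), and its value was 1.07 without 1205Lu replicate 1. The HMGA2 intron 3 peak had a value of 0.49 (standard error 0.226, adjusted p = 0.071, same edgeR test), and did not pass. It passed on total counts (0.35), with all 6 FRA1 samples entered separately (0.55), with the replicate block added to that fit (0.50) and without 1205Lu replicate 1 (1.06).

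A further HMGA2 peak in intron 3, chr12:65948424-65949232, was higher in 1205Lu cells, at a log2 fold change of 1.46 (standard error 0.236, adjusted p = 1.1e-05, quasi-likelihood test of edgeR, Benjamini-Hochberg adjustment). It had 70, 98 and 73 FRA1 counts against 11 with IgG in A375 cells and 18, 46 and 40 against 4 in 1205Lu cells, and held no AP-1 letters. As CPM in peaks it had 20.87, 18.43 and 17.15 against 28.65 in A375 cells, below IgG, and 30.84, 51.26 and 51.18 against 12.72 in 1205Lu cells. Those higher in A375 cells were the peak 5.4 kb upstream (-1.42, standard error 0.392) and one in intron 3, chr12:65940714-65941571 (-1.83, standard error 0.496). The first was not called with DESeq2 (adjusted p = 0.054) or without 1205Lu replicate 1 (-0.95), and both had 0 to 5 FRA1 counts in each 1205Lu sample. The other peaks called higher in 1205Lu cells near HMGA1 were at chr6:34246257-34247183 (1.00), chr6:34248208-34249073 (1.05) and chr6:34285358-34285841 (5.33). None of these 3 was enriched over IgG in 1205Lu cells by the rule, with 3 to 24 FRA1 counts. The first lost its call without 1205Lu replicate 3 (0.74) and the second without 1205Lu replicate 1 (0.63). The first and the second overlap the neighbouring gene SMIM29, and the second ends close to the SMIM29 start. The last lies in NUDT3, 39.1 kb past HMGA1, with 1, 3 and 1 counts against 3 in A375 cells and 3, 12 and 21 against 1 in 1205Lu cells.

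The upstream peak at chr12:65764766-65765892, 58.6 kb from HMGA2 and inside RPSAP52, was chosen after its values were seen. It had 261, 447 and 312 FRA1 counts against 9 with IgG in A375 cells and 3, 4 and 5 against 5 in 1205Lu cells. Its log2 fold change was -3.68 (standard error 0.324), and it held 3 AP-1 sequences. Of 5306 peaks of like width, 5.11% held 3 or more. Over all peaks 57.7% held an AP-1 sequence, and 28.6% held one within 100 bases of the centre. Near HMGA1 it was 4 of 8 peaks with 9 sequences, 2 of these peaks with one that close to the centre. Near HMGA2 it was 7 of 10 with 9 sequences, again 2 with one that close. FRA1 binding was not profiled in silenced cells here, so no peak could be set against the change of its gene within the same cells.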

How the data were processed

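HMGA1, HMGA2 and the gene lists were chosen with earlier results of these data known. For RNA-seq, the authors found adapters with BBMerge 37.02, cut them with cutadapt 1.8.1, aligned reads to GRCh38 with STAR 2.7.7a and deposited expected counts from RSEM 1.3.0 on Gencode 30, as whole numbers. No normalization had been applied. In the Cut&Run arm the authors aligned reads with Bowtie2 2.4.1, called peaks with MACS2 2.1.1.20160309 and deposited raw counts per consensus peak. Whether replicates were pooled for peak calling is not given in the sources used here.

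Counts were fitted with edgeR 4.0.16 in R 4.3.3 (filterByExpr, TMM, glmQLFit, glmQLFTest, Benjamini-Hochberg over all features, threshold 0.05), on the groups compared, and on all 12 RNA samples for the interaction. CPM used TMM sizes over all 12 samples. Gene and exon positions came from GENCODE 44. Peaks were taken within 50 kb of a gene, and AP-1 letters were searched on both strands. Genes of each list were named when among the 3 largest called changes of a line with a mean of at least 10 CPM, and the family, IGF2BP, LIN28B and antisense genes by their values. On simulated data 195 of 200 changed genes were recovered for A375 silencing (97.5%, 10 false calls among 16835 genes), and 108 of 200 changed peaks (54%, 5 false calls among 44763 peaks), all with an absolute log2 fold change of 1. The simulated spread was fixed and smaller than the 9.85% biological coefficient of variation of the peak fit. The simulation also entered all 6 FRA1 samples separately, so its figures for peaks do not describe the fit of 2 samples against 3. Alternatives were DESeq2 1.42.0, other normalizations and filters, other limits over IgG, other windows, a replicate block and each sample left out. Chosen after seeing the data were the block with all 6 FRA1 samples entered separately and the ratio over all annotated exons. All columns were mapped to samples.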

Additional observations from a re-analysis of the deposited data

Results flagged for a closer look

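The response of HMGA2 to FOSL1 silencing differed between the lines in the interaction test, by -0.70 on the log2 scale (1205Lu minus A375, adjusted p = 4.7e-12, quasi-likelihood test of edgeR, Benjamini-Hochberg adjustment). It was higher in 3 of 3 silenced samples than in each control in both lines, by 1.84-fold in A375 and 1.12-fold in 1205Lu cells. The fall of HMGA1 also differed, by -0.070 (adjusted p = 0.017, same edgeR test), a difference that missed the threshold under 7 of 17 alternatives. The cause of either difference was not tested.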

How the results depend on the processing

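The silencing effects on both genes and the HMGA2 differences kept their direction and their call under all alternatives run. Without 1 sample, the HMGA1 difference between the lines ranged from -0.074 to -0.052 and the unsilenced HMGA1 comparison from -0.057 to -0.0069, past the threshold without any 1 of the A375 si-NT samples. With no filter the former was -0.050 (adjusted p = 0.37, edgeR). The latter was called with upper-quartile scaling (-0.0454), no filter (-0.14) and all 12 samples in one fit (-0.078), and turned with DESeq2 (0.0012) and 10 counts in every sample (0.019). The cause was not tested.

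Peaks enriched near HMGA1 and HMGA2 numbered 1 and 2 in A375 and 0 near HMGA1 in 1205Lu cells at 8 times IgG, 1 and 0 in A375 and 0 near HMGA1 in 1205Lu cells with scaled totals, 2 near HMGA2 in 1205Lu cells at 2 times IgG, and 2 near HMGA1 in 1205Lu cells with a window of 100 kb. Without 1 sample the counts in A375 and 1205Lu cells were 5 to 7 and 1 to 2 near HMGA1, and 6 to 10 and 0 to 2 near HMGA2. Peaks higher in A375 cells near HMGA2 numbered 1 with DESeq2 and 4 on total counts, 1 to 3 without 1 sample, and near HMGA1 1 on total counts and 0 to 1 without 1 sample. Peaks higher in 1205Lu cells near HMGA2 numbered 2 on total counts and with all 6 samples entered, and 1 to 2 without 1 sample. AP-1 letters at the centre left 2 peaks near each gene. Leaving out 1205Lu replicate 1 left 1 summed 1205Lu sample, assumed to vary like the A375 ones.

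Values that were not called turned for IGF2BP1 in A375 cells with upper-quartile scaling (0.011) and no filter (0.021), and without 1 sample (-0.024 to 0.026), as did FOSL2 in 1205Lu (-0.048 to 0.032) and HMGA1P8 in A375 cells (-0.71 to 0.28). Peaks at chr12:65886962 (DESeq2 0.13, without 1 sample -0.86 to 0.24), chr12:66035519 (DESeq2 0.089, without 1 sample -0.22 to 0.057) and chr6:34236542 (without 1 sample -0.29 to 0.92) turned likewise.

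Replicate numbers were not shown to pair samples, with correlations of same-numbered deviations of 0.12, 0.035 and 0.027 in A375 and 0.012, 0.031 and -0.063 in 1205Lu cells. Those of different-numbered deviations ranged from -0.083 to 0.052 in A375 and from -0.065 to 0.059 in 1205Lu cells. The same-numbered value of 0.12 in A375 cells lay above its range, and the others lay within theirs. A replicate block moved the genes called from 8593 to 8614 in A375 and from 6941 to 6746 in 1205Lu cells and changed no call of HMGA1 or HMGA2 (HMGA1 difference -0.070). For peaks the block was fitted with all 6 FRA1 samples entered separately, and 2 peaks near HMGA2 were higher in 1205Lu cells with the block and without it. The low counts in peaks of the 1205Lu Cut&Run samples limit what their weaker peaks can show.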
